A study of Mus musculus with 32 samples.

Results

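Interscapular brown adipose tissue (iBAT) of mice killed late in the light phase, at Zeitgeber time (ZT) 9, was compared with iBAT of mice killed early in the light phase, at ZT3. Zeitgeber time counts the hours from lights on. Mice were assigned to the comparison by the time-point label of their library, 4 at ZT9 and 4 at ZT3, which are 8 of the 32 libraries of a series of 8 time points set 3 h apart. All were male C57BL/6J mice of 10 weeks kept at room temperature in a light:dark cycle with chow at will and not fasted, so the 2 groups share strain, sex, age, diet and housing and differ in the hour of death. The 4 mice of ZT6, which fall between both groups, served to place a change within the 6 h.

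Brown fat is the organ that burns fatty acids for heat, through uncoupling protein 1 in its mitochondria. It draws those fatty acids from circulating triglycerides, which lipoprotein lipase (LPL) hydrolyses at the capillary wall, from its own lipid droplets and from synthesis out of glucose. Its cells also hold a molecular clock: the activators BMAL1 (gene Arntl), CLOCK and NPAS2 bind E-boxes and switch on their own repressors (the Per and Cry genes and others), the REV-ERB and ROR receptors set the level of Arntl, and the D-box factors DBP, TEF and HLF, opposed by NFIL3, pass the time on to other genes. The comparison asks which genes of this tissue differ between the early and the late rest phase of a nocturnal animal.

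Libraries held between 16883314 and 17353901 counts at ZT3 and between 16648905 and 17839159 at ZT9. The libraries of ZT3 and ZT6 were sequenced on lane 2 and those of ZT9 on lane 3, so that lane and time of day cannot be told apart in ZT9 against ZT3. Skeletal muscle transcripts (13 genes) summed to 8144 CPM (a gene's counts relative to the scaled total of its library) in mouse 2 of ZT3 and to 2005 and 2143 CPM in mice 1 and 4 of ZT9; the remaining 5 mice had 60.6 to 154 CPM. Macrophage and blood transcripts were highest in mouse 3 of ZT9, at 344 and 1137 CPM, while the remaining 7 mice had 75.4 to 166 and 265 to 726 CPM. None of 11 such measures (10 marker sums and the share of mitochondrially encoded genes) passed an exact permutation test between the groups (two-sided, lowest p = 0.0571 for the endothelial sum, 0.419 after Benjamini-Hochberg adjustment over the 11). The 10 brown adipocyte markers summed to between 5647 and 8602 CPM in every mouse. In whole tissue, fewer cells of a type and less RNA per cell cannot be told apart. Of the marker genes of these lists, Kdr (endothelial) was the one that passed the gene-wise test below.

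Of 15505 genes tested, 916 (5.91%) passed an adjusted p of 0.05 in edgeR's quasi-likelihood test, 465 of them higher (3.00%) and 451 lower (2.91%) at ZT9. At an unadjusted p under 0.05 there were 3124. Changes were mostly small: the median size among the 916 was 0.515 on the log2 scale, which is 1.43-fold, and 154 exceeded 2-fold, with 60 higher and 94 lower. The mice of the 2 groups did not overlap in 749 of the 916, whereas they did not overlap in 10.5% of all tested genes. The count was 284 (160 higher) without the 3 libraries high in muscle transcripts, and 939 (474 higher) with the level of these transcripts as a term of the model. It was 569 without mouse 1, 535 without mouse 3 and 588 without mouse 4 of ZT3, and 572 without mouse 2 of ZT9. With the 8 libraries fitted alone it was 262, and of the 69 called genes examined by name 30 were not called there, among them Bhlhe41, Akt1, Hsph1, Slc16a1, Thbs1 and Foxo6.

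**Figure D1:**
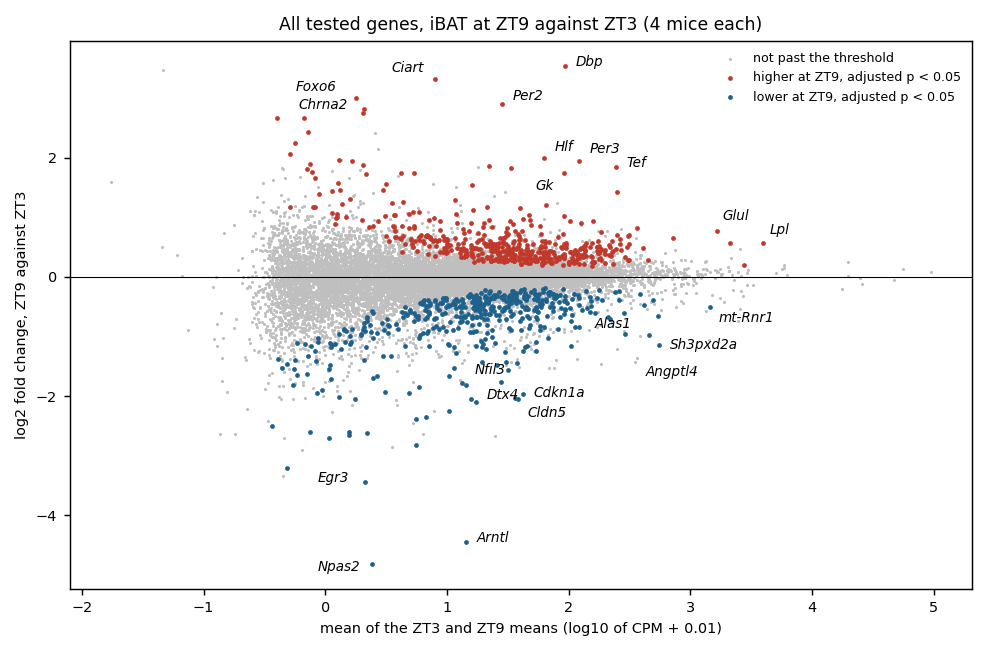
Each point is 1 of the 15505 tested genes, with the mean level in iBAT (log10 of CPM) on the horizontal axis and the log2 fold change of ZT9 against ZT3 on the vertical axis. The 465 genes higher at ZT9 are red and the 451 lower ones blue; fitted changes run from Npas2 at -4.82, which had few reads at ZT9, to Dbp at 3.55.

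The 2 widest called changes in each direction were those of clock genes, Dbp and Ciart higher and Npas2 and Arntl lower. All 6 listed activators had a lower fitted level at ZT9 (median log2 fold change -0.74, against -0.0079 over all tested genes), and 3 of the 6 passed the test. Of 10 repressors 5 passed, all higher (median 0.96), and of 4 output factors all passed, 3 higher and 1 lower. The share of all tested genes that passed was 5.91%, with 3.00% higher and 2.91% lower.

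Short stretches of 4 of these promoters, taken from RefSeq on GRCm38.p6, show the elements that these factors are known to bind. They serve as examples of genes that passed the test and hold a motif before the start in their promoter (250 bases before to 50 after the RefSeq start). Capitals mark the motif, and each line runs 5′ to 3′ on the strand of the gene.
Ciart, 3 E-boxes (CACGTG), chr3:95882253-95882358, - strand: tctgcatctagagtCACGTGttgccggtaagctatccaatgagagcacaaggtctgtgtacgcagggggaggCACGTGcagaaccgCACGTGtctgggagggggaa
Bhlhe41, 1 E-box, chr6:145865554-145865587, - strand: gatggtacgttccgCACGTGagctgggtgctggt
Per3, 2 D-boxes (TTATGTAA), chr4:151044802-151044884, - strand: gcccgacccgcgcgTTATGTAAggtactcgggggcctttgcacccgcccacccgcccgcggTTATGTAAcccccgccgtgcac
Nfil3, 1 ROR element core (TAGGTCA, read here from the other strand), chr13:52981040-52981065, - strand: gcggcgctcggaacTGACCTActaac
The E-boxes of Ciart begin 116, 58 and 44 bases before the start, that of Bhlhe41 153 bases, the D-boxes of Per3 205 and 158 bases and the ROR core of Nfil3 12 bases before it. By the GENCODE annotation the stretches of Ciart and Per3 lie outside the exons of their gene, that of Bhlhe41 shares 5 bases with an exon and that of Nfil3 lies in an exon. A search on both strands found CACGTG in 7.15% of all 32851 promoters of the table, TTATGTAA in 0.938%, TTACGTAA (the other D-box spelling) in 0.119%, TAGGTCA in 2.61% and the cAMP element TGACGTCA in 1.79%. Of the 20 clock genes 17 had a promoter in the table, and an E-box was found in 5, a D-box in 1, a ROR core in 2 and a cAMP element in 1 of them. These are genes with a hit in any of up to 3 promoters, whereas the shares are of single promoters. The E-box genes were Ciart, Bhlhe41, Tef, Per1 and Cry1, and the last 2 did not pass. Dbp, Hlf, Per3 and Nr1d2, called higher at ZT9, held no E-box there. A promoter was matched by symbol for 70.4% of the tested and 74.7% of the called genes, and changed genes were not compared with other genes.

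Among the activators, Arntl (chr7:113207465-113314126, + strand), which encodes BMAL1, was at 36.3, 24.3, 29.3 and 20.2 CPM in mice 1 to 4 of ZT3 and at 2.56, 0.984, 0.886 and 0.544 CPM in those of ZT9. Every ZT9 mouse lay far below every ZT3 mouse, and the mean was 22.1 times lower (log2 fold change -4.46 ± 0.30 (SE), adjusted p = 1.69e-10). Npas2 (chr1:39193731-39363236, + strand), which can stand in for CLOCK, went from 5.52, 4.80, 4.87 and 3.47 CPM to 0.116, 0.232, 0.277 and 0 CPM. Its 4 libraries of ZT9 held 2, 4, 5 and 0 reads, so the size of this fall is poorly known (log2 fold change -4.82 ± 0.45 (SE), adjusted p = 3.73e-08). Clock was at 72.5, 88.1, 81.1 and 78.6 CPM at ZT3 and at 43.7, 55.5, 38.8 and 41.7 CPM at ZT9, again with no overlap but with a smaller change (log2 fold change -0.83 ± 0.10 (SE), adjusted p = 1.5e-06). Call and direction held for Arntl and Npas2 in each fit without 1 mouse and without the 3 muscle-rich libraries. In the fit without those 3 libraries Nr1d2, described next, was the one clock call lost. The receptors Rora and Rorb did not pass, at -0.12 and -0.64 on the log2 scale (adjusted p = 0.663 and 0.426).

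The 5 called repressors were higher at ZT9. Per2 (chr1:91415982-91459324, - strand), a core partner of the cryptochromes, rose from 7.38, 4.58, 6.44 and 8.17 CPM to 31.5, 40.1, 64.4 and 64.0 CPM (log2 fold change 2.91 ± 0.25 (SE), adjusted p = 2.75e-08). Ciart, which represses BMAL1 and CLOCK, rose from 1.32, 0.708, 1.74 and 2.00 CPM to 12.2, 8.57, 17.6 and 19.5 CPM (log2 fold change 3.32 ± 0.30 (SE), adjusted p = 1.91e-08). Both kept their groups well apart, with the lowest ZT9 mouse above the highest ZT3 mouse. Per3 was at 51.4, 53.1, 40.5 and 53.2 CPM at ZT3 and 125, 170.2, 209 and 264 CPM at ZT9 (log2 fold change 1.95 ± 0.19 (SE), adjusted p = 2.05e-07). Bhlhe41, the DEC2 repressor that competes for E-boxes, was at 14.8, 8.34, 8.41 and 6.58 CPM and then at 25.5, 20.2, 52.1 and 40.3 CPM (log2 fold change 1.86 ± 0.35 (SE), adjusted p = 0.00174), with exons of the opposite strand over 19.0% of its exonic bases. Nr1d2, which encodes REV-ERB beta, rose from 79.7, 63.1, 60.0 and 79.3 CPM to 127, 119.6, 142 and 151 CPM (log2 fold change 0.94 ± 0.18 (SE), adjusted p = 0.00234). In Bhlhe41 the ZT9 mice ranged more widely than in Nr1d2, although neither gene overlapped between groups.

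The other 5 repressors did not pass. Per1 was at 29.9, 28.9, 68.8 and 40.1 CPM at ZT3 and at 46.9, 66.9, 98.5 and 117 CPM at ZT9, with mouse 3 of ZT3 above mice 1 and 2 of ZT9 (log2 fold change 0.97, adjusted p = 0.0659). It passed without mouse 3 of ZT3 (adjusted p = 0.0215), without mouse 1 of ZT9 (0.0354) and in DESeq2 (0.0383). Cry2 did not pass (log2 fold change 0.36, adjusted p = 0.0927), but passed without mouse 1 of ZT9 (0.0262). Cry1 (log2 fold change -0.25, adjusted p = 0.366) and Bhlhe40 (log2 fold change 0.30, adjusted p = 0.833) overlapped between groups. Nr1d1, the gene of REV-ERB alpha, had a mean of 223 CPM at ZT6, above 169 CPM at ZT3 and 176 CPM at ZT9 (log2 fold change 0.06, adjusted p = 0.917).

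Of the output factors, Dbp, an activator at D-boxes, went from 8.76, 18.0, 15.1 and 16.2 CPM to 130.1, 138, 213 and 202 CPM, 11.7 times higher in the mean (log2 fold change 3.55 ± 0.26 (SE), adjusted p = 9.26e-10), and no gene that met the naming rule rose by more on the log2 scale. Exons of genes on the opposite strand cover 18.0% of its exonic bases, and the strand setting of the counting is not given in the sources used here. Its relative Tef was at 94.3, 115, 96.7 and 121 CPM at ZT3 and at 315, 344, 428 and 444 CPM at ZT9 (log2 fold change 1.84 ± 0.17 (SE), adjusted p = 4.41e-08). Hlf, of the same family, was at 22.1, 29.6, 22.9 and 25.3 CPM and then at 70.3, 76.8, 122 and 131 CPM (log2 fold change 2.00 ± 0.16 (SE), adjusted p = 1.61e-09), and in all 3 factors every ZT9 mouse lay above every ZT3 mouse. Nfil3, the repressor at the same D-boxes, fell from 30.0, 17.7, 26.5 and 15.0 CPM to 4.66, 6.6, 7.14 and 6.89 CPM (log2 fold change -1.82 ± 0.26 (SE), adjusted p = 7.61e-05). Within ZT9, mice 3 and 4 lay above mice 1 and 2 for Dbp, Tef, Hlf, Per1, Per2, Per3, Ciart and Bhlhe41. Usp2, a deubiquitinase gene with a known daily rhythm, rose too, from 7.80, 15.8, 21.3 and 13.8 CPM to 38.3, 46.0, 55.7 and 68.5 CPM (log2 fold change 1.83 ± 0.27 (SE), adjusted p = 0.000139).

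At ZT6 the means of all 12 called clock genes except Nfil3 lay between those of ZT3 and ZT9. The 3 comparisons share mice and are given side by side. From ZT3 to ZT6, which share a lane, 309 genes passed (1.99%), 127 higher (0.819%) and 182 lower (1.17%), and from ZT6 to ZT9, on different lanes, 307 passed (1.98%), 169 higher (1.09%) and 138 lower (0.890%). Both counts moved with single mice: ZT6 against ZT3 gave 157 without mouse 1 and 170 without mouse 3 of ZT3, and 135 without mouse 3 and 165 without mouse 4 of ZT6. ZT9 against ZT6 gave 154, 177 and 174 without mice 1, 2 and 3 of ZT6 and 114 without mouse 4 of ZT9. Arntl fell by 2.26 on the log2 scale in the first 3 h (adjusted p = 6.40e-06) and by 2.19 in the next (adjusted p = 0.000202). Dbp rose by 2.5 and then by 1.05 (adjusted p = 1.28e-06 and 0.0153), Per2 by 1.09 and then by 1.83 (adjusted p = 0.0189 and 0.000116). Nfil3 was already at 6.00 CPM at ZT6, where it had fallen by 1.89 on the log2 scale (adjusted p = 0.000174), against 6.32 CPM at ZT9 (0.07 for ZT9 against ZT6, adjusted p = 0.944). Of the 20 clock genes 11 passed within the lane, from ZT3 to ZT6.

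**Figure D2:**
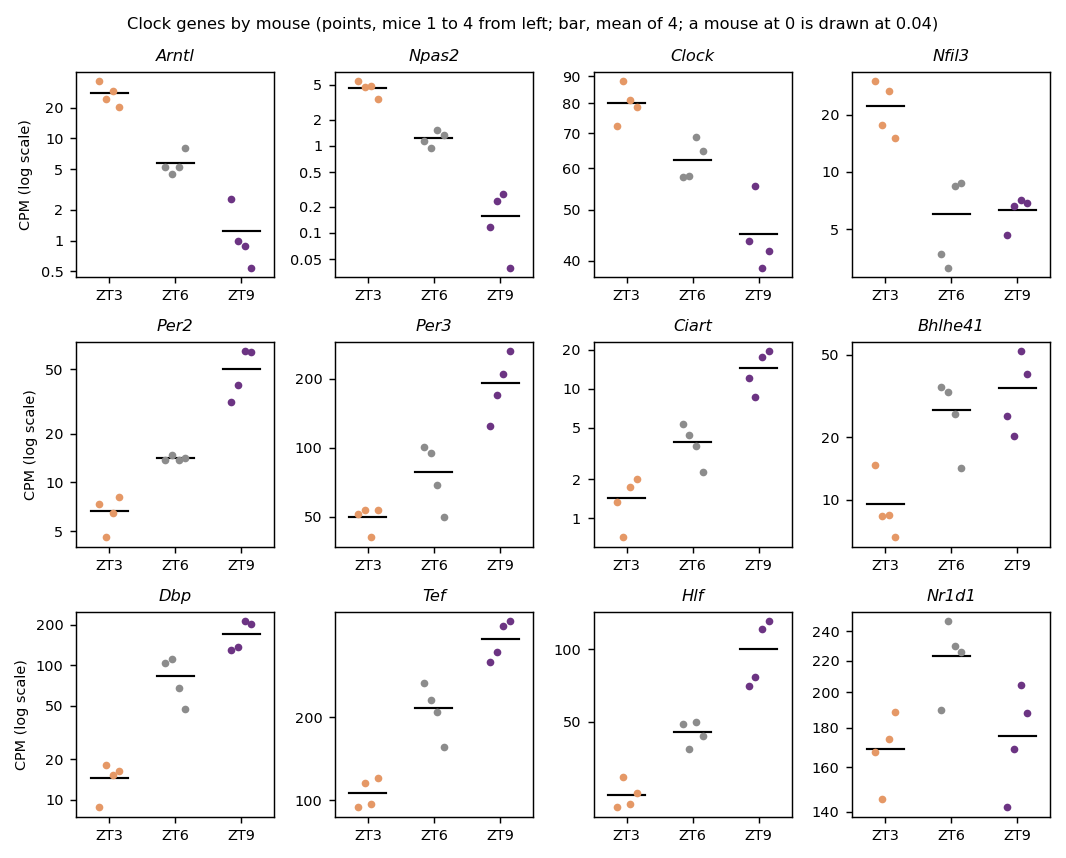
Level of 12 clock genes in each mouse of ZT3, ZT6 and ZT9, in CPM on a log axis, with 1 point per mouse and a bar at the mean of 4. Arntl, Npas2 and Clock step down from ZT3 to ZT9 and Per2, Per3, Ciart, Dbp, Tef and Hlf step up with no overlap, whereas Nfil3 is low from ZT6 on and Nr1d1 is highest at ZT6.

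Of 16 tested genes of the LPL pathway 2 passed, both higher, where 5.91% of all tested genes passed and 3.00% were higher, and the median was 0.031. The count is near that share and says nothing about the list as a whole. Lpl (chr8:68880491-68907448, + strand), which frees fatty acids from lipoproteins, was at 2831, 3507, 3181 and 3149 CPM at ZT3 and at 5408, 4998, 4023 and 4334 CPM at ZT9. Its 4 mice of ZT9 all lay above those of ZT3, with a mean that rose by 1524 CPM, the widest rise of any gene that met the naming rule (log2 fold change 0.57 ± 0.12 (SE), adjusted p = 0.00439). At ZT6 the mean was still 3026 CPM (log2 fold change 0.63 for ZT9 against ZT6, adjusted p = 0.00617). Lpl passed in each fit without 1 mouse and with the muscle transcript level as a covariate. Without the 3 muscle-rich libraries it did not pass, at a log2 fold change of 0.558 (adjusted p = 0.0582). Pltp, the phospholipid transfer protein, went from 47.0, 46.1, 50.6 and 46.2 CPM to 75.0, 78.2, 70.5 and 65.2 CPM (log2 fold change 0.60 ± 0.11 (SE), adjusted p = 0.000976), and opposite-strand exons cover 19.3% of its exonic bases.

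Angptl4, whose product inactivates LPL, was at 498, 478, 554 and 521 CPM at ZT3 and at 162, 321, 144 and 139 CPM at ZT9. The groups did not overlap and the mean was 2.68 times lower, but the change did not pass (log2 fold change -1.42 ± 0.47 (SE), adjusted p = 0.0733), and mouse 2 of ZT9 stood apart from the other 3. Without that mouse the adjusted p was 0.0512, and it passed in 2 of 21 alternatives (the 8 libraries alone, 0.0357, and DESeq2, 0.0418). Cd36, the fatty acid transporter, was at 1969, 1885, 1917 and 1935 CPM and then at 2289.6, 2028, 2148 and 2143 CPM, likewise with no overlap and no call (log2 fold change 0.16, adjusted p = 0.179). Other members, among them the LPL anchor Gpihbp1, the maturation factor Lmf1 and the receptors Vldlr and Lrp1, did not pass either. Without the 3 muscle-rich libraries Pltp was the one LPL pathway gene called.

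For storage and release of fat, 3 of 21 genes of triglyceride synthesis and the droplet passed (median 0.21), and 4 of 16 genes of lipolysis (median 0.21), all higher. Of all tested genes 5.91% passed and 3.00% were called higher. Cidec, a droplet-fusion protein, was at 569, 597, 542 and 541 CPM at ZT3 and at 866, 946, 835 and 888 CPM at ZT9, with 2 tight groups (log2 fold change 0.65 ± 0.13 (SE), adjusted p = 0.0031). Gpat4, which starts triglyceride synthesis, rose from 203, 261, 269 and 309 CPM to 545, 544, 327 and 428 CPM (log2 fold change 0.82 ± 0.17 (SE), adjusted p = 0.00272). Fitm2, needed to form droplets, was at 133, 159.7, 162 and 162 CPM and then 225, 239, 159 and 187 CPM (log2 fold change 0.40, adjusted p = 0.0262), with mouse 3 of ZT9 inside the range of ZT3. Of the lipolytic genes, Pnpla2, the adipose triglyceride lipase, went from 2503, 2518, 2567 and 2657 CPM to 2838, 3120.1, 2852 and 2938 CPM, a rise of 376 CPM on a high level (log2 fold change 0.20 ± 0.06 (SE), adjusted p = 0.0462). Ces1f, a carboxylesterase, Adcy3, an adenylyl cyclase, and Adora1, the adenosine receptor that restrains it, rose by 0.56, 0.91 and 0.60 on the log2 scale (adjusted p = 0.0106, 0.028 and 0.0055). Adora1 was at 107, 149, 152 and 147 CPM at ZT3 and at 161, 210.2, 237 and 235 CPM at ZT9, with no overlap. The beta3-adrenergic receptor Adrb3 was at 249, 213, 249 and 205 CPM and then at 189, 151, 87.9 and 98.1 CPM and did not pass (log2 fold change -0.80, adjusted p = 0.106). Opposite-strand exons cover 22.1% of Adcy3, 20.1% of Adora1 and 24.9% of Adrb3. The call was lost in some fits without 1 mouse for Fitm2 (3 of 8, highest adjusted p 0.122 without ZT9 mouse 2), Pnpla2 (7 of 8, highest adjusted p 0.147 without ZT9 mouse 2), Ces1f (1 of 8, highest adjusted p 0.0758 without ZT9 mouse 1) and Adcy3 (6 of 8, highest adjusted p 0.151 without ZT9 mouse 2), but in none for Cidec, Gpat4 and Adora1. With the 8 libraries alone Cidec was the one of these 7 called (Gpat4, adjusted p = 0.0514; Adora1, 0.0701; the other 4, 0.135 to 0.209). Without the 3 muscle-rich libraries Cidec and Adora1 were the 2 called of these 7.

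In fatty acid oxidation and thermogenesis, 2 of 22 and 3 of 18 tested genes passed, all higher, with medians of 0.12 and 0.17 (over all tested genes 3.00% were higher). Acsl1, which activates fatty acids, was at 1539, 1687, 1639.9 and 1868 CPM at ZT3 and at 3039, 3086, 1738 and 2189 CPM at ZT9, where mice 1 and 2 were high and mouse 3 lay within ZT3 (log2 fold change 0.58 ± 0.16 (SE), adjusted p = 0.0266). Cpt1a, which lets them into mitochondria, rose from 16.0, 15.4, 18.3 and 16.7 CPM to 19.9, 23.0, 22.5 and 22.8 CPM (log2 fold change 0.41 ± 0.10 (SE), adjusted p = 0.0127). Gk, glycerol kinase, rose from 41.7, 46.5, 40.6 and 41.1 CPM to 155, 239.6, 60.2 and 113 CPM, all above ZT3 but spread widely (log2 fold change 1.74 ± 0.47 (SE), adjusted p = 0.029). The nuclear receptors Esrra and Esrrg, regulators of mitochondrial genes, rose by 0.33 and 0.67 on the log2 scale (adjusted p = 0.0238 and 0.00646). Ucp1 itself was at 2219, 2153, 1972 and 2192 CPM at ZT3 and at 2658, 4318, 2057 and 2858 CPM at ZT9 and did not pass (log2 fold change 0.48, adjusted p = 0.384), and Pdk4, which spares glucose, did not pass either (log2 fold change -1.05, adjusted p = 0.0823; it passed without mouse 2 of ZT9, 0.0106, in DESeq2, 0.0494, and in limma voom, 0.0443). Calls were lost without 1 mouse for Acsl1 (5 of 8, highest adjusted p 0.114 without ZT9 mouse 2), Gk (6 of 8, highest adjusted p 0.117 without ZT9 mouse 2) and Esrra (3 of 8, highest adjusted p 0.144 without ZT9 mouse 2). Without the 3 muscle-rich libraries Esrra was the one of these 5 genes still called. In that fit the log2 fold changes of Acsl1, Cpt1a, Gk and Esrrg were 0.514, 0.417, 1.86 and 0.479 (adjusted p = 0.224, 0.0997, 0.14 and 0.213).

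None of 18 genes of fatty acid synthesis passed, 16 of them with a lower fitted level at ZT9 (median -0.34, against -0.0079 over all tested genes), while 5.91% of all tested genes passed. Fasn, fatty acid synthase, was at 20956, 13035, 21134 and 19667 CPM at ZT3 and at 29066, 20136, 4413 and 11624 CPM at ZT9 (log2 fold change -0.20, adjusted p = 0.88), and Acly, which supplies its acetyl-CoA, was at 4196, 1577, 3304 and 3153 CPM and then at 3579.7, 1769, 820.1 and 1128 CPM (log2 fold change -0.74, adjusted p = 0.476). Mice 3 and 4 of ZT9 were below every ZT3 mouse for both genes and mice 1 and 2 were not. Elovl3, an elongase of brown fat, was at 8.94, 5.61, 4.76 and 12.0 CPM at ZT3 and at 64.1, 44.1, 0.941 and 3.81 CPM at ZT9, where mice 1 and 2 lay above and mice 3 and 4 below every ZT3 mouse (log2 fold change 1.85, adjusted p = 0.335). Scd2, a desaturase, was lower in all 4 mice of ZT9, at 292, 184, 175 and 168 CPM against 668, 339, 592 and 510.0 CPM, but did not pass (log2 fold change -1.37, adjusted p = 0.0852; it passed with the 8 libraries alone, 0.0326, and in DESeq2, 0.0412). Cholesterol synthesis held no called gene among 22 tested either (median -0.16).

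**Figure D3:**
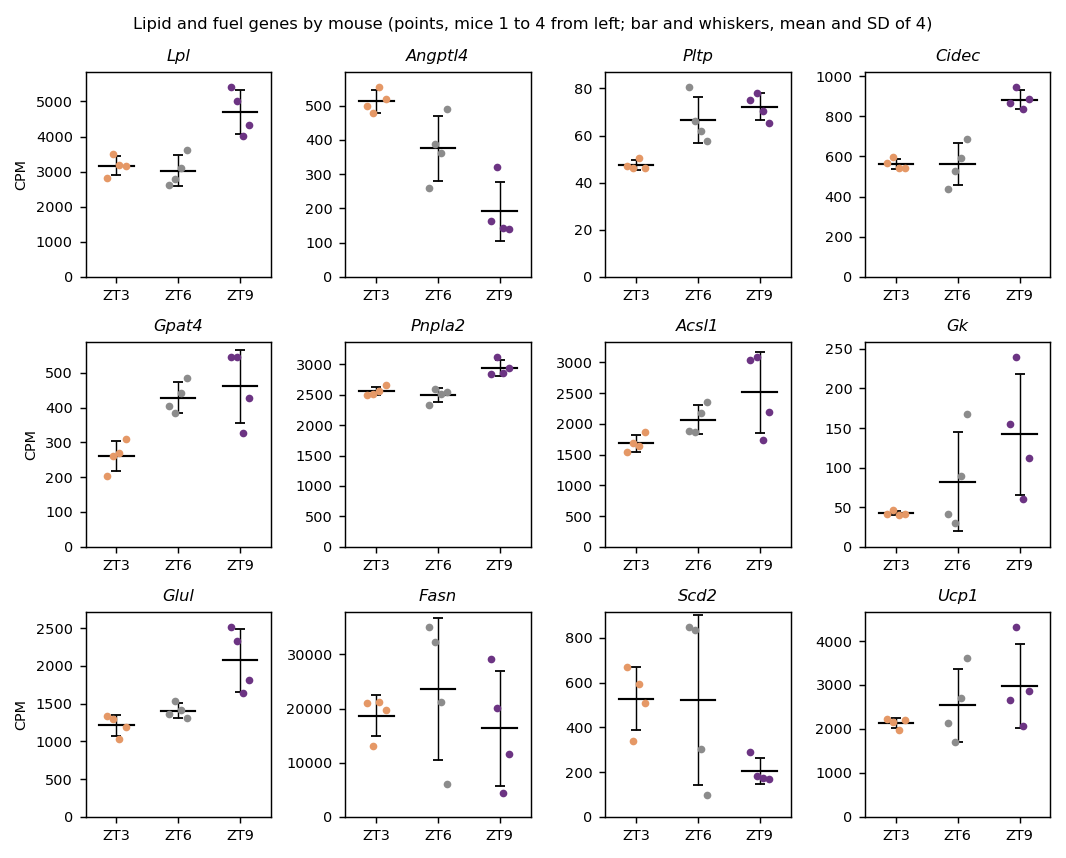
CPM of 12 genes of lipid and fuel handling in each mouse at ZT3, ZT6 and ZT9, with bars at the mean and whiskers of 1 SD (n = 4). Lpl, Cidec and Pnpla2 rise between ZT6 and ZT9 with no overlap with ZT3, Angptl4, which did not pass, is lower at ZT9 with mouse 2 apart from the rest, and Fasn and Ucp1 spread more at ZT6 and ZT9 than at ZT3.

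In hormone response, 4 of 18 fasting and glucocorticoid genes passed, all higher, and 5 of 19 genes of insulin signalling, 3 higher and 2 lower. Of all tested genes 3.00% were called higher and 2.91% lower. The list medians were 0.057 and -0.029. Fitted levels were higher for 9 and lower for 9 genes of the first list, and higher for 8 and lower for 11 of the second. Klf15, a factor induced by glucocorticoids, was at 33.1, 35.9, 24.0 and 20.6 CPM at ZT3 and at 55.1, 63.7, 50.7 and 53.2 CPM at ZT9 (log2 fold change 0.97 ± 0.23 (SE), adjusted p = 0.0108). Foxo1, which insulin holds out of the nucleus and which stands in both lists, rose from 50.1, 54.6, 53.7 and 59.8 CPM to 67.9, 74.1, 101 and 86.3 CPM (log2 fold change 0.60 ± 0.13 (SE), adjusted p = 0.00522). Klf9 and Tsc22d3 (GILZ), further glucocorticoid targets, rose by 0.42 and 0.63 (log2, adjusted p = 0.0174 and 0.0288). The insulin kinase Akt1 went from 79.0, 98.9, 87.7 and 86.3 CPM to 108, 137, 117 and 109 CPM (log2 fold change 0.42 ± 0.10 (SE), adjusted p = 0.00691), and Ptpn1, the phosphatase of the insulin receptor, rose as well (log2 fold change 0.34, adjusted p = 0.0493). Trib3, which binds AKT, fell from 14.3, 7.19, 8.18 and 11.9 CPM to 6.06, 6.37, 6.03 and 5.02 CPM (log2 fold change -0.82, adjusted p = 0.0145), and Tbc1d4, the AKT substrate that holds back glucose transporters, from 125, 115, 134 and 109.5 CPM to 80.2, 73.6, 86.9 and 98.3 CPM (log2 fold change -0.51, adjusted p = 0.0108). Irs2 was at 39.1, 39.0, 303 and 200.5 CPM at ZT3, with mice 3 and 4 far above the others, and at 13.5, 57.1, 24.9 and 23.1 CPM at ZT9 (log2 fold change -2.29, adjusted p = 0.0637, not past the threshold; without mouse 1 or 2 of ZT3 it was 0.0496 and 0.0405, and in DESeq2 0.0176). Fits without 1 mouse lost the call of Klf15 (1 of 8, highest adjusted p 0.0502 without ZT3 mouse 4), Klf9 (3 of 8, highest adjusted p 0.0698 without ZT3 mouse 1), Tsc22d3 (4 of 8, highest adjusted p 0.115 without ZT9 mouse 3), Ptpn1 (6 of 8, highest adjusted p 0.175 without ZT9 mouse 1), Trib3 (3 of 8, highest adjusted p 0.0862 without ZT3 mouse 1) and Tbc1d4 (1 of 8, highest adjusted p 0.052 without ZT9 mouse 2). Without the 3 muscle-rich libraries the calls of Ptpn1 and Trib3 were lost and Ddit4, a glucocorticoid target, was called. In glycolysis 1 of 22 genes passed, against 5.91% of all tested genes. This gene, Pfkfb1, a regulator of phosphofructokinase, rose from 45.1, 58.5, 48.8 and 50.5 CPM to 69.3, 65.1, 87.4 and 86.4 CPM (log2 fold change 0.60 ± 0.11 (SE), adjusted p = 0.00103).

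Of the secreted factors 1 of 6 tested passed, Nrg4, a brown fat signal to the liver, at 143, 125, 133 and 161 CPM at ZT3 and 208, 192, 186 and 215 CPM at ZT9 (log2 fold change 0.51 ± 0.09 (SE), adjusted p = 0.000758), a call lost without the 3 muscle-rich libraries. The 1 call of 6 stands beside 5.91% of all tested genes. Leptin (Lep) was at 64.6, 44.7, 48.5 and 32.4 CPM and then at 72.6, 20.1, 211 and 149 CPM (log2 fold change 1.25, adjusted p = 0.112; without mouse 2 of ZT9, 0.0172). Its 2 highest mice of ZT9, mice 3 and 4, also had the highest sums of the white fat markers, a list that holds Lep, at 321 and 219 CPM where the remaining 6 had 81.1 to 170 CPM, and the part of white fat in its level was not tested.

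Among the other genes named for their rise, Glul, glutamine synthetase, went from 1332, 1301, 1032 and 1188 CPM to 2516, 2326, 1636 and 1814 CPM (log2 fold change 0.77 ± 0.14 (SE), adjusted p = 0.000698), and Ephx2, soluble epoxide hydrolase, from 244, 229, 239.8 and 244 CPM to 449, 440.3, 321 and 352 CPM (log2 fold change 0.71 ± 0.14 (SE), adjusted p = 0.00174). In both, mice 1 and 2 of ZT9 were the highest. At low levels, Foxo6, a forkhead factor, was at 0.24, 0.872, 0.232 and 0.176 CPM at ZT3 and 1.11, 1.04, 4.98 and 5.44 CPM at ZT9 (log2 fold change 3.00 ± 0.70 (SE), adjusted p = 0.00983), and Chrna2, an acetylcholine receptor subunit, at 0.3, 0.49, 0.464 and 0.764 CPM and 5.12, 6.14, 1.11 and 2.12 CPM (log2 fold change 2.82 ± 0.57 (SE), adjusted p = 0.00291). Foxo6 was highest in mice 3 and 4 and Chrna2 in mice 1 and 2. Cyp2f2, a cytochrome P450, rose from 1.5, 3.38, 2.26 and 2.64 CPM to 14.7, 5.15, 6.87 and 6.41 CPM (log2 fold change 1.75 ± 0.49 (SE), adjusted p = 0.0316), a call that fits without 1 mouse could lose (4 of 8, highest adjusted p 0.132 without ZT9 mouse 1). Opposite-strand exons cover 13.5% of its exonic bases. Without the 3 muscle-rich libraries Ephx2 and Cyp2f2 were not called.

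All 18 heat shock and chaperone genes had a lower fitted level at ZT9 (median -0.40, against -0.0079 over all tested genes), and 4 of them passed. Of all tested genes 5.91% passed and 2.91% were called lower. Hsph1 (HSP110) was at 61.0, 28.9, 73.5 and 26.9 CPM at ZT3, with mice 1 and 3 high, and at 18.8, 17.1, 13.5 and 15.0 CPM at ZT9 (log2 fold change -1.56 ± 0.35 (SE), adjusted p = 0.00799). Hspb1 (HSP27) fell from 24.1, 34.8, 36.0 and 26.7 CPM to 18.6, 15.0, 18.1 and 13.5 CPM (log2 fold change -0.90, adjusted p = 0.0347), and the co-chaperone Stip1 from 76.3, 56.7, 80.8 and 55.2 CPM to 49.2, 43.4, 45.0 and 40.4 CPM (log2 fold change -0.60, adjusted p = 0.0458). Hspa8 was at 498, 227, 346 and 289.9 CPM and then at 207, 238, 225 and 225 CPM, with mouse 2 of ZT3 inside the range of ZT9 (log2 fold change -0.61, adjusted p = 0.0481). The calls of Hspb1 (4 of 8, highest adjusted p 0.0999 without ZT3 mouse 3), Stip1 (6 of 8, highest adjusted p 0.151 without ZT3 mouse 3) and Hspa8 (7 of 8, highest adjusted p 0.245 without ZT3 mouse 1) were lost without 1 mouse, and without the 3 muscle-rich libraries none of the 18 passed. In that fit, on 5 of the 8 mice, the list median was -0.48 and the log2 fold changes of Hsph1, Hspb1, Stip1 and Hspa8 were -1.82, -0.81, -0.68 and -0.71 (adjusted p = 0.0524, 0.279, 0.16 and 0.112). Neither the 14 genes of endoplasmic reticulum chaperones (median -0.095) nor the 2 cold-inducible ones passed.

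The extracellular matrix list had 4 of 22 genes called, all lower (median -0.13), where 5.91% of all tested genes were called and 2.91% were called lower. Serpinh1 (HSP47), the chaperone of procollagen, fell from 291, 234, 328 and 233 CPM to 168, 163, 173 and 166 CPM (log2 fold change -0.70 ± 0.14 (SE), adjusted p = 0.00243). Col4a1, a collagen of basement membranes, fell from 598, 575, 558 and 515 CPM to 431, 433, 457 and 391.6 CPM (log2 fold change -0.39 ± 0.08 (SE), adjusted p = 0.00463). Col5a3 and Lox, the collagen cross-linker, fell by 0.51 and 0.62 on the log2 scale (adjusted p = 0.0232 and 0.0111), and fits without 1 mouse lost the call of Col5a3 (3 of 8, highest adjusted p 0.0834 without ZT9 mouse 4) and of Lox (1 of 8, highest adjusted p 0.0528 without ZT9 mouse 4). Without the 3 muscle-rich libraries Serpinh1 was the one matrix gene called. The fibrillar collagens Col1a1, Col1a2 and Col3a1 did not pass. The 8 endothelial markers had a median of -0.0055, with 4 fitted levels higher and 4 lower at ZT9, and 1 passed: Kdr, the VEGF receptor, fell from 300.3, 279, 306 and 278 CPM to 218, 223, 215 and 235 CPM, with 2 tight groups (log2 fold change -0.39 ± 0.09 (SE), adjusted p = 0.00594). Cldn5, a tight junction protein of endothelium, fell from 53.5, 49.4, 66.0 and 79.6 CPM to 9.96, 20.6, 15.8 and 13.7 CPM (log2 fold change -2.05 ± 0.31 (SE), adjusted p = 0.000229). The endothelial marker sum was 1101 to 1218 CPM at ZT3 and 902 to 1106 CPM at ZT9, and the part of endothelial cell number in these falls was not tested.

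All 12 early response genes had a lower fitted level at ZT9 (median -0.92, against -0.0079 over all tested genes), and 2 of them passed. Of all tested genes 5.91% passed and 2.91% were called lower. Atf3 was at 1.80, 1.80, 10.0 and 6.05 CPM at ZT3 and at 1.16, 0.869, 2.27 and 0.786 CPM at ZT9 (log2 fold change -1.94 ± 0.46 (SE), adjusted p = 0.0102), and Egr2 at 0.78, 1.47, 6.44 and 2.00 CPM and 0.233, 0.637, 0.388 and 0.483 CPM (log2 fold change -2.60 ± 0.75 (SE), adjusted p = 0.0374). Egr3, outside the list, was at 0.72, 1.2, 8.64 and 4.82 CPM and 0, 0.637, 0.277 and 0.483 CPM (log2 fold change -3.44 ± 0.87 (SE), adjusted p = 0.0182). Within ZT3 all 3 were highest in mouse 3 and next in mouse 4, and without mouse 3 the adjusted p was 0.0856 for Atf3, 0.223 for Egr2 and 0.0903 for Egr3. Egr2 was lost without 6 of the 8 mice in turn and Egr3 also without mouse 1 of ZT9 (0.0556). None of the 3 passed without the muscle-rich libraries, where their log2 fold changes were -1.92, -2.58 and -3.36 (adjusted p = 0.0761, 0.228 and 0.123). Mouse 3 of ZT3 also had the highest sum of nerve and glia markers of all 32 libraries, 275 CPM, where the other mice of ZT3 had 59.8 (mouse 4) to 141 CPM and those of ZT9 45.6 to 170 CPM. All 5 of these markers tested had a lower fitted level at ZT9 (median -0.67), none passed, and their part in the early response values was not tested. Nr4a1 showed how far mice of a group differed in such genes, at 29.3, 116, 387 and 139.6 CPM and 5.36, 171, 41.6 and 39.2 CPM (log2 fold change -1.38, adjusted p = 0.609). Thbs1, thrombospondin, shared the high mouse 3 of ZT3, at 4.68, 5.12, 25.4 and 9.76 CPM, and was at 2.10, 2.08, 2.10 and 2.54 CPM at ZT9 (log2 fold change -2.35 ± 0.47 (SE), adjusted p = 0.00313).

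Cdkn1a (p21), an inhibitor of cell division, was the one called gene of 10 in the cell cycle list, falling from 50.7, 70.4, 83.2 and 63.2 CPM to 17.3, 24.7, 11.3 and 15.3 CPM (log2 fold change -1.96 ± 0.24 (SE), adjusted p = 8.31e-06). It held in every fit without 1 mouse, and the proliferation genes of the list, such as Mki67 and Top2a, did not pass. The 1 call of 10 is near the share of all tested genes that passed, 5.91%, and says nothing about the list as a whole. Tshr, the thyrotropin receptor, fell from 23.8, 29.3, 26.4 and 20.9 CPM to 9.08, 4.40, 6.20 and 4.59 CPM (log2 fold change -2.05 ± 0.25 (SE), adjusted p = 7.91e-06), and Dtx4, a Deltex ubiquitin ligase, from 29.9, 27.7, 27.8 and 25.9 CPM to 6.29, 7.06, 7.31 and 5.14 CPM (log2 fold change -2.11 ± 0.15 (SE), adjusted p = 1.69e-10). Nfe2l3 and Dusp8, a transcription factor and a MAP kinase phosphatase, fell by 2.38 and 2.26 on the log2 scale (adjusted p = 0.000305 and 0.00864). The protease gene Adamts4 and Fam124b, both under 5 CPM in each mouse, fell by 2.63 and 2.71 (adjusted p = 4.39e-06 and 0.000172).

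Among abundant genes, Alas1, the first enzyme of haem synthesis, fell from 613, 634, 579.8 and 607 CPM to 189, 264, 444 and 337 CPM (log2 fold change -0.98 ± 0.20 (SE), adjusted p = 0.00288), with narrow values at ZT3 and wide ones at ZT9. Slc16a1, the lactate carrier MCT1, fell from 429, 299, 416 and 403 CPM to 267, 243, 137 and 147 CPM (log2 fold change -0.96 ± 0.20 (SE), adjusted p = 0.00398), and Sh3pxd2a, a scaffold of podosomes, from 631, 712, 839 and 856 CPM to 366, 455, 260.4 and 292 CPM (log2 fold change -1.15 ± 0.22 (SE), adjusted p = 0.00167). Fam13a and Ntrk3 had means of 655 and 478 CPM at ZT3 and of 418 and 346 CPM at ZT9 (adjusted p = 0.0263 and 0.0376). The mitochondrial ribosomal RNA mt-Rnr1 was the one called of 15 mitochondrially encoded genes, at 1714, 1741, 1477 and 1849.7 CPM and then 1251, 1326, 1004 and 1182 CPM (log2 fold change -0.51 ± 0.15 (SE), adjusted p = 0.0398), and mt-Rnr2 did not pass (log2 fold change -0.54, adjusted p = 0.0575; it passed with the 8 libraries alone, 0.0419, in DESeq2, 0.0317, and with a filter without groups, 0.0485). The 1 call of 15 stands beside 5.91% of all tested genes. Levels of the 15 differed widely: at ZT3 the means were 92802 CPM for mt-Co1 and 53563 CPM for mt-Cytb. Those of mt-Co2, mt-Co3, mt-Atp6, mt-Nd3 and mt-Nd4l were 47.5, 37.3, 36.7, 6.13 and 3.00 CPM, for a reason not tested. Such genes add little to the mitochondrial share. The share of all counts in mitochondrially encoded genes was 24.3% ± 0.859 (SD, n = 4) at ZT3 and 25.1% ± 3.22 (SD, n = 4) at ZT9 (exact permutation test, two-sided, p = 0.629). Without 1 mouse the calls of Fam13a (5 of 8, highest adjusted p 0.122 without ZT3 mouse 1), Ntrk3 (5 of 8, highest adjusted p 0.135 without ZT9 mouse 2) and mt-Rnr1 (6 of 8, highest adjusted p 0.105 without ZT3 mouse 4) were lost, and without the 3 muscle-rich libraries those of Alas1, Sh3pxd2a, Fam13a, Ntrk3 and mt-Rnr1.

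**Figure D4:**
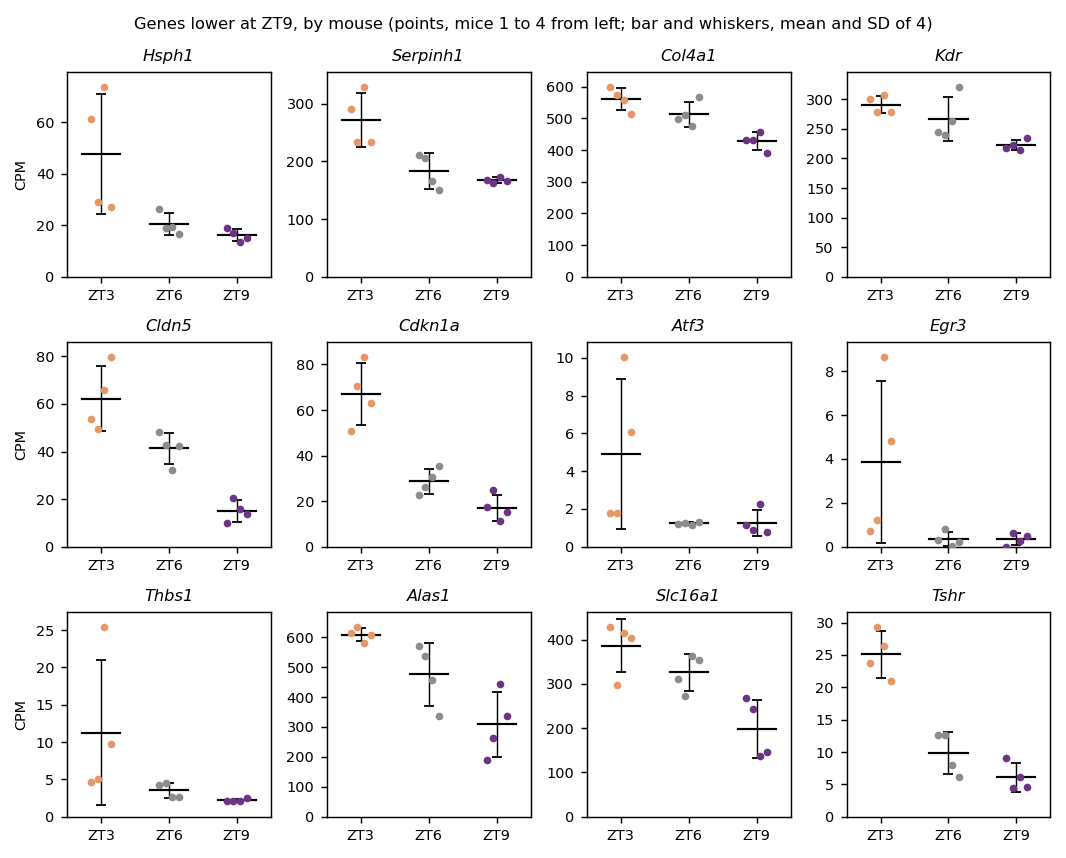
CPM of 12 genes that passed as lower at ZT9, by mouse, for ZT3, ZT6 and ZT9, with bars at the mean and whiskers of 1 SD (n = 4). Kdr, Cldn5, Cdkn1a and Tshr separate ZT3 from ZT9 with modest spread, whereas the high values of Atf3, Egr3 and Thbs1 at ZT3 come from mice 3 and 4.

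**Figure D5:**
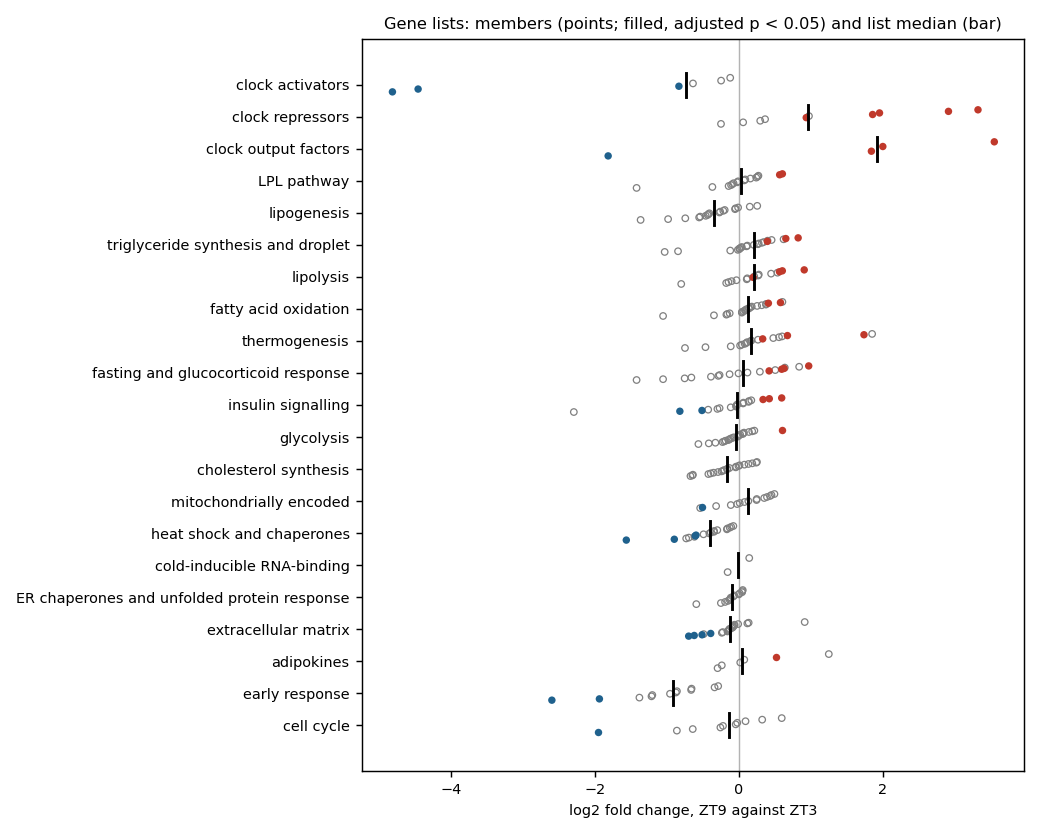
Log2 fold change of ZT9 against ZT3 for each tested member of 21 gene lists, 1 row per list, with filled points for members past the threshold and a black bar at the list median. The clock lists reach furthest to both sides, the heat shock and early response lists lie wholly left of 0, and the lipogenesis and cholesterol lists hold no filled point.

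Called genes were not evenly spread over transcript composition. Of 10 equal bins of genes, the one lowest in GC content (median 39.5% GC) held 15 genes higher and 62 lower at ZT9, and the one highest in GC (median 59.4%) 59 higher and 32 lower. The bin with the longest transcripts (median 8036 bases) held 30 higher and 96 lower. Median log2 fold changes over the bins ran from -0.065 to 0.04 for GC content and from -0.072 to 0.034 for length. ZT3 and ZT9 differ in lane, and the part of lane in this pattern was not tested.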

How the data were processed

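Stranded libraries of whole iBAT RNA were read from both ends. The authors aligned the reads with GSNAP (2017-09-11) to mm10 and counted them per Ensembl gene with HTSeq-count (0.6.1), and the raw counts were deposited as 1 table. The strand setting of the counting is not given in the sources used here. The table holds 50686 genes, of which 20100 have no count. Symbols were matched for 50376.

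Counts were analysed in R 4.3.3 with edgeR 4.0.16: filterByExpr by time point (15505 genes kept, with 99.9% of counts), TMM scaling, and the quasi-likelihood test (robust) of ZT9 against ZT3 as a contrast in a fit of all 32 libraries, with Benjamini-Hochberg adjustment and a threshold of 0.05. A gene called or said to have passed is one under that threshold. CPM are scaled by TMM. Each library is 1 mouse; within ZT3 and within ZT9 no pair of libraries agreed within sampling noise. DESeq2 1.42.0 and limma 3.58.1 were alternatives. Reads carry no molecular identifiers. Figures and summaries used Python 3.11.15.

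Genes were named from the lists and, besides these, among called genes whose groups did not overlap and whose mean reached 1 CPM: the 12 highest and 12 lowest log2 fold changes and the 8 largest rises and 8 largest falls in CPM, leaving out genes without a full symbol. The values of 1 list member are not reported here. The members, lists and tests were chosen with earlier results of these data known, so no list is independent evidence of its direction. Gene coordinates and overlaps are from GENCODE vM21 on GRCm38, which is not the release used for the counts.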

Additional observations from a re-analysis of the deposited data

Results flagged for a closer look

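Single mice stood apart from the other 3 of their group by Dixon's criterion in 10 of 204 groups of 4 examined (4.9%), and chance alone flags about 1 in 20. At ZT3, Per3 was at 40.5 CPM in mouse 3 against 51.4 to 53.2 CPM, Cry1 at 20.5 CPM in mouse 1 against 11.7 to 13.1 CPM, Fitm2 at 133 CPM in mouse 1 against 160 to 162 CPM, Adora1 at 107 CPM in mouse 1 against 147 to 152 CPM and Foxo6 at 0.872 CPM in mouse 2 against 0.176 to 0.24 CPM. At ZT9, Angptl4 was at 321 CPM in mouse 2 against 139 to 162 CPM, Scd2 at 292 CPM in mouse 1 against 168 to 184 CPM and Thbs1 at 2.54 CPM in mouse 4 against 2.08 to 2.1 CPM. The sum of skeletal muscle markers was 8140 CPM in mouse 2 of ZT3 against 63.4 to 154 CPM, and that of macrophage markers 344 CPM in mouse 3 of ZT9 against 75.4 to 112 CPM.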

How the results depend on the processing

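The count of genes called between ZT9 and ZT3 (916) stayed within 1.5 times under RLE factors (919), library size alone (757), a filter without groups (977), removal of mitochondrially encoded genes (900), DESeq2 (1168), limma voom (839) and the muscle level as a covariate (939). It was 594 with no filter (266 lower), 262 with the 8 libraries alone (133 higher, 129 lower) and 41 when tested against a 1.5-fold change (16 higher, 25 lower), a stricter test by construction. Without the 3 libraries high in muscle transcripts, an alternative chosen after seeing the data like the muscle covariate, it was 284 (160 higher, 124 lower). Leaving out 1 mouse gave 535 to 1080 (258 to 583 higher, 259 to 497 lower). For ZT6 against ZT3 it gave 135 to 300 (46 to 142 higher, 86 to 158 lower), and for ZT9 against ZT6 it gave 114 to 349 (72 to 197 higher, 42 to 152 lower). DESeq2 called 490 genes for ZT9 against ZT6 (283 higher). Fits with fewer libraries have less power by construction; the cause of the other shifts was not tested.

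The labels number the mice alike at each time, but same-numbered mice of ZT3 and ZT9 did not deviate together (correlations of -0.147, -0.592, 0.351 and -0.414 over genes). With the replicate block the count was 849 in 32 libraries and 113 in 8 libraries (48 higher, 65 lower). Of the 69 called genes examined, the block in 32 libraries lost 3 (Pnpla2, Ptpn1 and Hspa8) and that in 8 libraries lost 43, among them Lpl (adjusted p = 0.0928), Nfil3 (0.0546), Bhlhe41 (0.146), Gpat4 (0.147) and Chrna2 (0.0978). Each gained 1, Per1 in 32 libraries (0.0478) and Scd2 in 8 (0.024).

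The difference in the mitochondrial share (0.764 percentage points) ran from -0.277 to 1.85 without 1 mouse. The log2 fold change of Nr1d1 ran from -0.023 to 0.15 and that of Fasn from -0.633 to 0.116, and neither gene was called. Of the 69 called genes among 91 examined, 16 were called under every alternative that tested them and 44 in each of the 8 fits without 1 mouse. There were 21 alternatives, of which 20 tested Npas2, Fam124b and Adamts4. Genes at few reads, such as Npas2 at ZT9, have a poorly known fold.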
